A study of Homo sapiens with 32 samples.

Results

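The RAS-MAPK pathway was represented here by 17 genes whose protein products carry, or restrain, the signal between growth factor receptors and the kinase ERK: *EGFR*, *GRB2*, *SOS1*, *PTPN11*, *SHOC2*, *CRKL*, *NRAS*, *HRAS*, *BRAF*, *ARAF*, *MAP2K1*, *MAP2K2*, *MAPK3*, *NF1*, *DUSP4*, *DUSP6* and *CSK*. They were chosen by name, with earlier results of these data known, and matched to the Ensembl identifiers of the library's count table. Each gene had 4 single guide RNAs (sgRNAs), so that 68 of 74987 sgRNAs and 17 of 18638 genes were followed. The cells were RKO, an established colorectal cancer line that carries an activating mutation of *BRAF*. All of them expressed Cas9 and the recorder KinprolaPKA, a split HaloTag protein with an EGFP tag that binds the far-red dye CPY-CA for good while protein kinase A (PKA) is active. On day 6, dye-labeled cells were sorted by their CPY-CA/EGFP ratio into a high population (around 25% of cells), a medium one (around 50%, called basal in the labels) and a low one (around 25%), and a T0 library was taken on day 0. The genotype label was the same in every group, and the groups differ only in their gate or day. No control arm without library or dye was part of the samples used.

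In textbook form, a ligand-bound receptor such as EGFR recruits the adaptor GRB2 and the exchange factor SOS1, which loads RAS proteins with GTP. GTP-bound RAS activates RAF kinases, RAF phosphorylates the MEK kinases, and MEK phosphorylates ERK. In cells with mutant BRAF the kinase signals to MEK without needing RAS, and growth of such tumor lines often depends on it. PKA is known to meet this pathway at several points.

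The readout was the abundance of each sgRNA. A knockout that is more frequent among high than among low cells has more reads in the high library, and one that slows growth or survival has fewer reads on day 6 than at T0. Reads show that a cell carried an sgRNA, while editing of the gene and loss of its protein were not measured in these libraries. There were 2 screens, labelled replicates 2 and 3 and called screens 2 and 3 below, with 1 library per population in each. The 8 libraries held 23369720 to 31777138 reads, and the median sgRNA had 260 to 356 reads. Counts are given as scaled reads, that is, brought to the mean library total. Fold changes are log2 ratios after adding 1 read, taken within a screen, averaged over the sgRNAs of a gene and tested over both screens with limma at a Benjamini-Hochberg FDR of 0.05 across all entries. Each SE and 95% interval of a gene below comes from the limma fit, which draws a gene's variance towards a value pooled over genes. They are therefore not the spread of that gene's own values in the 2 screens, which are printed separately for the main results. Single sgRNAs without a target in the genome (278 in all) served as the background for a single sgRNA. The middle 95% of their fold changes of high over low spanned −0.81 to 0.50 in screen 2 and −0.81 to 0.46 in screen 3. Their medians were −0.09 and −0.08, so this range was not centred on 0. The sgRNA sequences were not used here.

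Knockouts of *CRKL*, *CSK* and *BRAF* were more frequent among high than among low cells, and no gene of the 17 went the other way at this threshold. Of all genes, 5.25% were called higher and 2.73% lower in this comparison, beside 3 of 17 higher and 0 of 17 lower. Because the 17 genes were chosen with earlier results of these data known, these shares cannot measure an excess among them. At an unadjusted p under 0.05 there were 6 of the 17, all of them higher (*CRKL*, *CSK*, *BRAF*, *MAPK3*, *MAP2K1* and *GRB2*), beside 3285 of 18638 genes in either direction. The median fold change of the 17 was 0.00, against −0.01 over all genes. The fold changes ran from −0.12 for *EGFR* to 0.91 for *CRKL*. Every sgRNA was higher in high than in low cells in both screens for 4 genes, *BRAF*, *CRKL*, *CSK* and *MAP2K1*, a pattern found in 4.51% of all genes. Summed scaled reads of the high and low libraries did not overlap for 8 genes in the higher direction and 3 in the lower one. Among all genes, 22.4% and 25.5% were separated in these directions. Separation of 2 libraries from 2 was thus common throughout the library.

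*EGFR* encodes the epidermal growth factor receptor at the head of the pathway. Its sgRNAs were the most abundant of the set and summed to 3175 and 3239 scaled reads in the high libraries of screens 2 and 3, against 3334 and 3482 in the low libraries. The high values lay below the low values in both screens, but the fold change of −0.12 had a 95% interval of −0.37 to 0.12 (limma adjusted p = 0.66), and single sgRNAs differed in sign, with 6 of 8 values below 0. The knockout was neither enriched nor depleted beyond the error of the test.

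Of the 5 adaptors and signal relays between receptor and RAF, *CRKL* alone was called. CRKL (gene at chr22:20917407-20953747, plus strand, GRCh38) is an SH2 and SH3 domain adaptor that binds phosphorylated scaffolds and exchange factors. Its 4 sgRNAs summed to 1043 and 815 scaled reads in the high libraries, against 639 and 603 in the low libraries. The medium libraries held 650.3 and 573 reads. In summed reads the high libraries were therefore separated from both other populations. Between high and low, 22.4% of all genes were separated in this direction, and the share between high and medium is not given here. On the log2 scale averaged over sgRNAs, low over medium was −0.61 in screen 2 and −0.03 in screen 3 (mean −0.32, limma adjusted p = 0.47), and sgRNA 3 alone stood at −2.76 in screen 2. The fold change of high over low was 1.13 in screen 2 and 0.70 in screen 3, with a mean of 0.91 ± 0.13 (SE, n = 2 screens, limma adjusted p = 0.00044).

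The mean of *CRKL* rested in part on 1 thinly covered sgRNA. For sgRNA 3, 34.9 and 29.6 scaled reads in the high libraries stood against 5.3 and 9.9 in the low libraries, the largest change of the 4 sgRNAs in each screen. The other sgRNAs had larger counts and smaller changes in the same direction. For sgRNA 1, the high libraries held 369 and 232 reads and the low libraries 217 and 178. For sgRNA 2, the corresponding reads were 378 and 283 in high cells and 254 and 258 in low cells. For sgRNA 4, they were 262 and 270.2 in high cells and 162 and 158 in low cells. With sgRNAs under a mean of 50 reads left out, the fold change of *CRKL* dropped to 0.55 and stayed past the threshold (limma adjusted p = 0.00069). No single sgRNA of *CRKL* passed edgeR's test between high and low on its own, with adjusted p of 0.057 for sgRNA 4 and 0.15 to 0.46 for the others.

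*GRB2*, the adaptor that joins receptors to SOS1, had 825 and 819 scaled reads in the high libraries, against 739 and 699 in the low libraries. These values did not overlap, and 7 of 8 sgRNA values were above 0. The fold change of 0.24 (95% interval 0.00 to 0.48) did not pass adjustment (limma adjusted p = 0.27). *SOS1*, the exchange factor for RAS, had 1136 and 1148 reads in high cells against 1415 and 1163 in low cells, with a fold change of −0.12 (−0.37 to 0.13). *PTPN11*, which encodes the phosphatase SHP2 upstream of RAS, had 569 and 444 reads in high cells, against 485 and 532 in low cells. *SHOC2*, a scaffold that helps to remove an inhibitory phosphate from RAF, had 887 and 875 reads in high cells against 865 and 926 in low cells. For *PTPN11* and *SHOC2* the 2 populations overlapped and the screens differed in sign. Their fold changes were −0.04 (−0.28 to 0.20) and −0.01 (−0.25 to 0.23). The change of *CRKL*, with its own interval of 0.64 to 1.19, lies outside the intervals of all 4 of these genes. Differences between *CRKL* and these genes were not tested as such.

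The RAS genes *NRAS* and *HRAS* encode the small GTPases themselves. *NRAS* had 1827 and 1727 scaled reads in the high libraries, against 1757 and 1771 in the low libraries. The groups overlapped and the fold change was −0.02 (95% interval −0.28 to 0.24). *HRAS* had 1508 and 1286 reads in high cells, against 1648 and 1381 in low cells. Within each screen *HRAS* was somewhat lower in high cells, and 7 of 8 sgRNA values were below 0. The fold change of −0.10 (−0.33 to 0.14) did not pass the test (limma adjusted p = 0.74).

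*BRAF* (chr7:140719327-140924929, minus strand, GRCh38) encodes the RAF kinase that is mutated in these cells. Its sgRNAs summed to 1066 and 862 scaled reads in the high libraries, against 694 and 603 in the low libraries. Within each screen the medium library lay between, with 891 and 797 reads, and high and low did not overlap. The fold change was 0.68 in screen 2 and 0.62 in screen 3, or 0.65 ± 0.11 (SE, n = 2 screens, limma adjusted p = 0.0019), a 1.57-fold excess of *BRAF* knockouts among high cells. The values of the single sgRNAs were alike between the screens. In screens 2 and 3 they were 0.54 and 0.40 for sgRNA 1, 0.46 and 0.41 for sgRNA 2, 0.95 and 0.84 for sgRNA 3, and 0.77 and 0.84 for sgRNA 4. All 8 values were above 0, and the values of sgRNAs 3 and 4 lay above the range of single sgRNAs without a target in both screens. Coverage of sgRNA 3 was thin, with 67 and 34 scaled reads in the low libraries. In edgeR's test only sgRNA 4 passed, with 259 and 181 reads in high cells against 152 and 101 in low cells (adjusted p = 0.045). It was the only one of the 68 sgRNAs called in this comparison, while 3.12% of all tested sgRNAs against genes were called higher.

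*ARAF*, a RAF kinase of low intrinsic activity that relays RAS signals, was not called, whereas *BRAF* was. It had 1712 and 1632 scaled reads in the high libraries, against 1714 and 1814 in the low libraries. In screen 2 the high library was almost level with the low one. The fold change was −0.09 (95% interval −0.33 to 0.16, limma adjusted p = 0.78), an interval that does not reach the 0.41 to 0.89 of *BRAF*. The difference between the 2 genes was not tested as such.

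*MAP2K1* and *MAP2K2* encode the kinases MEK1 and MEK2, which phosphorylate ERK. *MAP2K1* had 948 and 991 scaled reads in the high libraries, against 749 and 786 in the low libraries. All 8 sgRNA values were above 0 and the groups did not overlap, yet the fold change of 0.30 (95% interval 0.06 to 0.53) did not pass adjustment (limma adjusted p = 0.15). With sgRNAs under a mean of 50 reads left out, which removed 1 of its 4 sgRNAs, *MAP2K1* had a fold change of 0.35 and passed (limma adjusted p = 0.041). This was 1 of 8 alternative settings that kept all libraries. In the others *MAP2K1* was not called, with adjusted p of up to 0.33 (limma). *MAP2K2* had 2276 and 2471 reads in high cells against 2168 and 2006 in low cells. Its fold change was −0.03 in screen 2 and 0.37 in screen 3, and the mean of 0.17 (−0.10 to 0.44) was within the error.

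*MAPK3* encodes ERK1, the last kinase of the cascade. Its sgRNAs summed to 2231 and 2192 scaled reads in the high libraries, against 1828 and 1721 in the low libraries. The populations did not overlap and 7 of 8 sgRNA values were above 0. The fold change was 0.26 in screen 2 and 0.38 in screen 3, with a mean of 0.32 (95% interval 0.08 to 0.56), and did not pass adjustment (limma adjusted p = 0.13). When the prior variance was allowed to follow the mean reads of a gene, an alternative chosen after seeing the data, *MAPK3* passed (limma adjusted p = 0.011). Of 8 alternative settings that kept all libraries, this was the only 1 in which *MAPK3* passed. The same variance trend left *MAP2K1* uncalled (limma adjusted p = 0.33). *MAP2K1* and *MAPK3* therefore ranked above 92.2% and 92.8% of genes without being called in the fit used throughout, and *BRAF* above 96.5%.

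The restraining genes *NF1*, *DUSP4* and *DUSP6* were not called. *NF1* encodes a GTPase-activating protein that switches RAS off. It had 584 and 617 scaled reads in the high libraries, against 550.0 and 582 in the low libraries. These values did not overlap, and 6 of 8 sgRNA values were above 0. Its fold change was 0.00 (95% interval −0.24 to 0.24), with single sgRNAs between −0.70 and 0.34. The lowest was the thinly covered sgRNA 2, with 52 and 63 reads in high cells against 99 and 89 in low cells. The median over sgRNAs gave 0.18 (limma adjusted p = 0.43). *DUSP4* and *DUSP6* encode phosphatases of ERK. *DUSP4* had 1114 and 1025 reads in high cells against 1117 and 1066 in low cells, with a fold change of 0.11 (−0.14 to 0.35). Its summed reads were thus slightly lower in high cells, while its mean over sgRNAs was above 0. Of its sgRNA values, 4 were above and 4 below 0. The largest, 1.06, came from the thinly covered sgRNA 1 in screen 2 (61 against 29 reads). The median over sgRNAs gave −0.02. *DUSP6* had 832 and 773 reads in high cells against 861 and 799 in low cells, with a fold change of −0.06 (−0.30 to 0.17). The libraries of both populations overlapped for each phosphatase.

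*CSK* (chr15:74782080-74803197, plus strand, GRCh38) encodes the kinase that holds SRC family kinases inactive, and it is itself a known substrate of PKA. Its sgRNAs summed to 714 and 781 scaled reads in the high libraries, against 472 and 504 in the low libraries. High and low did not overlap, and the fold change was 0.76 in screen 2 and 0.73 in screen 3, with a mean of 0.74 ± 0.11 (SE, n = 2 screens, limma adjusted p = 0.00068). The medium libraries did not hold a fixed place, since screen 2 had 739 reads there, near its high library, and screen 3 had 538, near its low library. The single sgRNAs of *CSK* had fold changes of 0.84 and 1.19 for sgRNA 1, 1.40 and 0.79 for sgRNA 2, 0.32 and 0.40 for sgRNA 3, and 0.47 and 0.54 for sgRNA 4 in screens 2 and 3. All 8 were above 0, and those of sgRNAs 1 and 2 exceeded the range of sgRNAs without a target in both screens. Both were thinly covered in the low libraries, with 57 and 60 scaled reads for sgRNA 1 and 52 and 104 for sgRNA 2. No sgRNA of *CSK* passed edgeR's test alone, with adjusted p of 0.068 to 0.54. *CSK* is the call that depended most on the fit. In a fit of all 8 libraries with the screen as a replicate block it had the same fold change and an adjusted p of 0.052 (limma), and it lost the call without any 1 of the high, low or T0 libraries (adjusted p of 0.066 to 0.32).

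The position of the medium population was tested next. Of the 17 genes, 0 were called between low and medium, where 4 had an unadjusted p under 0.05 (2073 of all genes) and 2.71% of all genes were called by limma in either direction. *BRAF* was closest to the threshold, with a fold change of −0.29 in screen 2 and −0.60 in screen 3, a mean of −0.45 ± 0.12 (SE, n = 2 screens, limma adjusted p = 0.11). All 8 of its sgRNA values were below 0, which held for 1.92% of all genes. Adding 5 reads instead of 1 brought *BRAF* past the threshold (limma adjusted p = 0.048), as did taking the median of its sgRNAs (limma adjusted p = 0.015). These were 2 of 8 alternative settings that kept all libraries. In the others *BRAF* was not called, with adjusted p of up to 0.38 (limma). Among the 68 sgRNAs, 0 were called by edgeR between low and medium and 4 had an unadjusted p under 0.05, with 0.632% of tested sgRNAs against genes called higher and 0.801% lower.

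Between high and medium, again 0 of 17 genes were called by limma, 1 had an unadjusted p under 0.05 (1866 of all genes), and 1.79% of all genes were called. That gene was *CRKL*, at 0.53 in screen 2 and 0.67 in screen 3, with a mean of 0.60 ± 0.10 (SE, n = 2 screens, limma adjusted p = 0.062). Adding 5 reads instead of 1 made it a call (adjusted p = 0.030), and so did leaving out sgRNAs under 50 reads (0.029), taking the median of its sgRNAs (0.00048) and centring on sgRNAs without a target (0.011). These were 4 of 8 alternative settings that kept all libraries. In the others *CRKL* was not called, with adjusted p of up to 0.22 (limma). Among single sgRNAs, edgeR called 1 of the 68, *CRKL* sgRNA 1, with 369 and 232 reads in high cells against 181 and 126 in medium cells (adjusted p = 0.0080), where 1.29% of sgRNAs against genes were called higher. *DUSP4* had all 8 sgRNA values below 0 between high and medium, which held for 0.907% of genes, with a fold change of −0.18 (95% interval −0.42 to 0.06) that did not pass. The decrease of *DUSP4* was not particular to high cells. Between low and medium it stood at −0.29 (−0.544 to −0.035, limma adjusted p = 0.36), with 6 of 8 sgRNA values below 0. Between high and medium, *CSK* showed −0.05 in screen 2 and 0.74 in screen 3, so that its medium library decided this value.

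Whether the shifts of high and low from medium cancelled each other was tested by the sum of high and low minus 2 times medium. This sum departs from 0 where a gene moves further on one side of medium. It also does so where high and low both move the same way, so it cannot tell these cases apart. Of the 17 genes 0 were called by limma, 1 had an unadjusted p under 0.05 (*DUSP4*, adjusted p = 0.68; 1279 of all genes), and 7 of 18638 genes in all were called, or 0.0376%. The interval was −0.76 to 0.27 for *BRAF*, −0.25 to 0.81 for *CRKL* and −0.91 to 0.79 for *CSK*. With intervals this wide, no gene of the pathway can be called one-sided.

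The comparison with T0 asked which knockouts had been lost by day 6. The sorted libraries were recombined into a pool with weights of 0.25, 0.5 and 0.25, after the shares of the gates. *BRAF* and *CRKL* fell, and none of the 17 rose. Among all genes 8.35% were called lower and 2.54% higher, against 2 of 17 and 0 of 17 here, and 5 of 17 had an unadjusted p under 0.05, beside 4275 of 18638 genes. The median fold change was 0.00, against 0.04 over all genes. Summed reads of pool and T0 did not overlap for 4 genes in the lower direction (*BRAF*, *NRAS*, *PTPN11*, *CRKL*) and 4 in the higher one (*HRAS*, *MAP2K2*, *SOS1*, *SHOC2*), as for 21.3% and 33.2% of all genes.

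*BRAF* had 885 and 765 scaled reads in the pools of screens 2 and 3, against 1469 and 1301 at T0. Each pool was well below both T0 libraries. The fold change was −0.72 in screen 2 and −0.79 in screen 3, with a mean of −0.75 ± 0.10 (SE, n = 2 screens, limma adjusted p = 7.7e-07). It was among the lowest 3.91% of genes. All 8 sgRNA values were below 0, which held for 5.83% of all genes. In edgeR's test 3 of the 4 sgRNAs were called lower (sgRNAs 1, 2 and 3, with fold changes of −0.80, −0.85 and −1.06 and adjusted p of 2.5e-06, 6.0e-05 and 0.011). The remaining sgRNA 4, at −0.46, did not pass (adjusted p = 0.20), although it was the one called between high and low.

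*CRKL* had 746 and 641 scaled reads in the pools, against 1010.1 and 976 at T0, with no overlap. The fold change was −0.57 in screen 2 and −0.46 in screen 3, with a mean of −0.51 ± 0.10 (SE, n = 2 screens, limma adjusted p = 0.00026), and 7 of 8 sgRNA values were below 0. Its sgRNAs 1 and 4 were called lower by edgeR (adjusted p = 0.0063 and 0.0080), which makes 5 of 68 sgRNAs called lower for the pathway, against 6.29% of all tested sgRNAs against genes. The call of *CRKL* was lost when a T0 library was left out, with adjusted p of 0.21 without that of screen 2 and 0.050 without that of screen 3 (limma, 8-library fit), while *BRAF* kept its call without each library in turn.

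*CSK* showed no such loss that could be measured. Its pool had 666 reads in screen 2 and 590.1 in screen 3, against 605 and 712 at T0, and the screens went opposite ways at 0.19 and −0.36 (mean −0.08, 95% interval −0.31 to 0.14, limma adjusted p = 0.70). *PTPN11* had 490.3 and 480.3 reads in the pools against 542 and 603 at T0, with a fold change of −0.25 (−0.45 to −0.05) that did not pass adjustment (limma adjusted p = 0.11). *SHOC2* had 847 and 916 reads in the pools against 743 and 776 at T0, at 0.22 (0.03 to 0.42, limma adjusted p = 0.15). *MAP2K1*, *MAP2K2* and *MAPK3*, the kinases below RAF, had fold changes of −0.04, 0.09 and −0.03. None of their intervals reached the loss of *BRAF*, but the differences from *BRAF* were not tested as such. *NRAS* at −0.13 and *HRAS* at 0.12 were also within the error. The 7 genes not yet given for this comparison, *EGFR*, *GRB2*, *SOS1*, *ARAF*, *NF1*, *DUSP4* and *DUSP6*, lay between −0.05 and 0.20, and none was called.

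These changes are relative to the mean library total. The sgRNAs without a target had medians of 0.23 in screen 2 and 0.25 in screen 3 between pool and T0. Relative to them *BRAF* stood at −0.99 and *CRKL* at −0.75, and *NRAS* (−0.37), *PTPN11* (−0.49), *MAP2K1* (−0.27) and *DUSP6* (−0.28) were also called lower by limma, out of 22 genes called higher and 6072 lower in all, in place of 473 and 1556. Between high and low, the same centring gave 1111 higher and 308 lower, in place of 979 and 508, and left *CRKL*, *CSK* and *BRAF* as the calls among the 17.

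The rest of the pathway was read from 4 lists of other genes, which were also chosen with earlier results of these data known. Of all genes, 5.25% were called higher and 2.73% lower between high and low, and 2.54% higher and 8.35% lower between pool and T0. At an unadjusted p under 0.05 there were 3285 and 4275 of 18638 genes in these comparisons. Of 32 other upstream activators, such as receptors, adaptors and exchange factors, 0 were called between high and low by limma (3 with an unadjusted p under 0.05, median −0.02) and 0 between pool and T0 (5 with an unadjusted p under 0.05). Of 20 other cascade members, 4 were higher in high than in low cells and 0 lower (median 0.11), and 0 were higher and 2 lower in the pool than at T0. Among the 4, *YWHAZ*, a 14-3-3 protein that binds phosphorylated RAF, stood at 0.74, *LAMTOR3*, a scaffold for MEK and ERK on lysosomes, at 0.56 and *FNTA*, a subunit of the enzyme that adds the farnesyl group to RAS, at 0.56. Against T0, the 2 that fell were *YWHAZ* (−0.81) and *RAP1B* (−0.45), which encodes a small GTPase related to RAS. *YWHAZ*, *LAMTOR3*, *FNTA* and *RAP1B* were chosen after their values were seen. Of 29 other negative regulators, 0 were higher and 1 lower between high and low (median −0.02), and 0 were higher and 2 lower between pool and T0, *CUL3* and *PEA15* (−0.76). PEA15 is a protein that binds ERK and holds it in the cytoplasm, and it too was chosen after its value was seen.

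The negative regulator that fell in both comparisons was *CUL3*, the scaffold of a ubiquitin ligase with many substrates. It had 659.8 and 653 scaled reads in the high libraries against 989 and 888 in the low libraries, with a fold change of −0.63 ± 0.12 (SE, n = 2 screens, limma adjusted p = 0.0055). Its pool, at 779 and 761 reads, was below T0, at 1251 and 1195 (−0.92, limma adjusted p = 2.2e-08). *CUL3* knockouts were thus rarer by day 6, as *BRAF* knockouts were, while between the gates the 2 went opposite ways.

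Of 27 ERK targets and effectors, 2 were higher and 1 lower between high and low (median −0.02), where 5.25% and 2.73% of all genes were. Between pool and T0, 1 was higher and 3 lower, where 2.54% and 8.35% of all genes were. The list did not move one way. *FOSL1*, which encodes the AP-1 subunit FRA1 that ERK stabilizes, had 1077 and 922 scaled reads in the high libraries against 2022 and 1925 in the low libraries, a fold change of −1.06 ± 0.11 (SE, n = 2 screens, limma adjusted p = 4.4e-05). *ETS1*, a transcription factor phosphorylated by ERK, had 1573 and 1589 reads in high cells against 1094 and 875 in low cells, at 0.95 ± 0.12 (limma adjusted p = 0.00015). Both were also called between low and medium, with *FOSL1* higher in low cells (1.05) and *ETS1* lower (−0.79). *MYC*, a growth-promoting transcription factor, had the deepest loss of the 4 lists, with 342 and 334 reads in the pools against 783 and 658 at T0 (−1.11, limma adjusted p = 5.6e-10). Of the others, chosen after their values were seen, *EGR1*, an immediate early transcription factor, was higher in high than in low cells (0.50) and lower in the pool than at T0 (−0.33), *MCL1*, a survival factor of the BCL2 family, fell against T0 (−0.73), and *ETV5*, a transcription factor of the ETS family, rose (0.33).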

How the data were processed

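The authors counted sgRNA reads with MAGeCK and deposited the raw count of every sgRNA in each sequencing lane, with no normalization; their processing notes also name limma. A read aligner and genome build are not given in the sources used here. Lanes of 1 library, 4 in each, agreed within sampling noise (a chi-square of 1.02 to 1.03 for each degree of freedom) and were summed, which made 8 libraries of 32 samples. A further 4 columns of the table match no sample and were not used. Without molecular identifiers, PCR reads overstate the number of independent molecules.

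Genes were tested with limma 3.58.1, after the steps that the study's methods name (normalization, log scale, fold change, mean per gene, limma, FDR of 0.05): scaled counts, 1 added read, log2 difference within a screen, mean over sgRNAs, both screens against 0, Benjamini-Hochberg adjustment over 18659 entries. The scaling, the pseudocount and the test of the 2 screens' fold changes against 0 are choices made here, since the methods do not give them, and core-essential genes, which the study removed, were kept. For T0, the pool was 0.25 high plus 0.5 medium plus 0.25 low scaled reads. Single sgRNAs were tested by edgeR 4.0.16 (quasi-likelihood, TMM, filterByExpr, screen as block, log means weighted by the same shares for T0), with DESeq2 1.42.0 as an alternative. Both tests were also run on counts simulated with known changes, a fixed dispersion and no effect of the screen. Such counts cannot show the error rate of the tests on these libraries. The screens were independent according to the methods, and the populations of a screen were sorted from 1 pool, so the screen pairs them; deviations of same-numbered libraries correlated at 0.08 to 0.14. With 2 screens, p-values rest mostly on a spread pooled over genes.

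Names come from GENCODE release 44, which named 18585 of 18638 identifiers. All 17 genes are named, in the order of their roles. Of the 4 other lists, at most 4 genes called between high and low or between pool and T0 were to be named, by size of change. Some genes of these lists are counted but not reported singly here. The members and lists were chosen with earlier results of these data known. Alternatives were the scaling, centring, pseudocount, read minimum, median over sgRNAs, 8-library fits with and without the replicate block, each library left out, and a variance trend, the last added after the data were seen.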

Additional observations from a re-analysis of the deposited data

How the results depend on the processing

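All alternatives kept the direction of the 5 calls among the 17 genes. Between high and low, *BRAF* was called in 7 of 8 settings that kept all libraries and 6 of 8 that left 1 out, *CSK* in 7 of 8 and 2 of 8, and *CRKL* in 8 of 8 and 8 of 8. Against T0, *BRAF* was called in 9 of 9 and 8 of 8, and *CRKL* in 9 of 9 and 6 of 8. *BRAF* lost its call between high and low in the 8-library fit with no replicate block (adjusted p = 0.052) and without the high library of screen 2 (0.086) or the low library of screen 3 (0.077). *CSK* gained a call between high and medium without the medium library of screen 2 (0.77, adjusted p = 0.018) and between low and medium without that of screen 3 (−0.83, adjusted p = 0.017). Some counts over all genes moved by over 1.5 times, and the cause was not tested. Centring on sgRNAs without a target gave 606 calls between high and medium (334 in the fit used throughout), 130 for high plus low minus 2 times medium (7) and 6094 between pool and T0 (2029). The median over sgRNAs gave 824 between low and medium (506), 673 between high and medium and 241 for the sum. The sum also gave 82 calls with 5 added reads, 100 with sgRNAs of at least 50 reads, 54 with the variance trend and 27 in the 8-library fit with the replicate block, and the variance trend gave 807 between low and medium. Within 1.5 times, that replicate block fit gave 1335 calls between high and low (1487) and 1550 between pool and T0 (2029). Leaving out 1 library, which moved some of these counts by over 1.5 times and others by less, gave 862 to 1356 genes between high and low, 231 to 422 between low and medium, 4 to 23 for the sum and 985 to 1504 between pool and T0, and 2050 to 2511 sgRNAs between high and low (3403) and 3398 to 5240 against T0 (5426). Depth limits sgRNAs such as *CRKL* sgRNA 3, and 2 screens limit every p-value.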
